A study of Mus musculus with 8 samples.

Results

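Fastkd3, Zfp367, Cdk20, Zfp738, Zfp87, Ctsl, Prxl2c and Mef2c are genes of mouse chromosome 13, on which Nsun2 also lies. All probes annotated to these 8 genes were taken, 16 of the 25608 probes on the array, and each was read by itself on 8 arrays grouped by whether the sample lacked or carried Nsun2. The genes had been listed because their signals differed with Nsun2 genotype in these data, so their Nsun2 differences are given as a description, with no test. Of the 16 probes, 14 passed the filter for testing, detection on at least 2 arrays at a detection p-value under 0.01, and 9 were detected on all 8 arrays. The Cdk20 probe ILMN_1238571, detected on the Nsun2-/- MEF array only, and the Mef2c probe ILMN_1214950, detected on 0 arrays, did not pass.

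The study measured RNA on Illumina MouseRef-8 v2 bead arrays in mouse embryonic fibroblasts (MEFs) and in liver. The 4 genotypes were Nsun2-/-, double knockout of Dnmt2 and Nsun2 (DKO), Dnmt2-/- and wild type (wt), with 1 array for each genotype and sample type. The MEFs came from embryos of day 13.5, were immortalized with a plasmid for the SV40 large-T antigen and were used at passage 9, and each genotype was 1 line. The livers came from mice aged 2 months. The Nsun2-lacking arrays were the Nsun2-/- and DKO arrays, and the Nsun2-carrying arrays were the Dnmt2-/- and wt arrays, so that each side of the comparison holds 1 array with and 1 array without Dnmt2. All samples had the same mixed strain label, CBA/C57BL6j x B6;129. The alleles that each array carried around Nsun2 were not analysed here, so Nsun2 genotype and the alleles of its neighbours cannot be told apart.

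Nsun2 encodes an enzyme that methylates cytosines in transfer RNAs and other RNAs, and Dnmt2 (gene symbol Trdmt1) encodes another transfer RNA methyltransferase. Genes close together on a chromosome tend to be inherited together, so mice bred for an allele of one gene often share alleles of its neighbours. A bead-array probe reads 1 short stretch of a transcript, and probes of the same gene can therefore report different transcript forms or be affected by sequence differences in their own stretch.

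In the RefSeq gene order of GRCm38.p6, 7 of the 8 genes lie before Nsun2 and Mef2c lies after it. Promoter windows, 300 bases from 250 before the transcript start to 50 after it, were found in the RefSeq table for 7 of the 8 genes. By the starts of these windows, Fastkd3 lies 1.03 Mb from Nsun2, Zfp738 1.93 Mb, Cdk20 5.18 Mb, Ctsl 5.24 Mb, Prxl2c 5.30 Mb, Zfp367 5.46 Mb and Mef2c 13.89 Mb. The windows of 3 genes are shown because these genes had the largest differences with Nsun2 genotype: Fastkd3 and Zfp367, which were lower without Nsun2, and Ctsl, which was higher. Capitals mark the GC box (GGGCGG, or CCGCCC on the other strand) and the CCAAT box (CCAAT, or ATTGG on the other strand), found by a search of both strands in which no 2 matches overlapped in these windows. Each sequence is written 5′ to 3′ on the strand of its gene.
Fastkd3, chr13:68581960-68582259, plus strand: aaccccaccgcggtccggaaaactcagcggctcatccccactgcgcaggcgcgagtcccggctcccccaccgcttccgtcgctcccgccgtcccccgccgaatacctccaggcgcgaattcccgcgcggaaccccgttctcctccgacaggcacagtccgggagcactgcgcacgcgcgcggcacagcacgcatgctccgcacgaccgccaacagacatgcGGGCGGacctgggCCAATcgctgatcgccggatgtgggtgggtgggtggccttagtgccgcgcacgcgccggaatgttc
Zfp367, chr13:64153150-64153449, minus strand: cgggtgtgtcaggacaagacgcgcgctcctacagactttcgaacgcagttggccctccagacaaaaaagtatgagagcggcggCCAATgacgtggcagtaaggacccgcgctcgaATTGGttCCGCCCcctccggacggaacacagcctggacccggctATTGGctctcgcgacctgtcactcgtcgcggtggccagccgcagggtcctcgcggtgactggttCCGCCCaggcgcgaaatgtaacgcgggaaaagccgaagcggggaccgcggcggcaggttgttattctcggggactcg
Ctsl, chr13:64370471-64370770, minus strand: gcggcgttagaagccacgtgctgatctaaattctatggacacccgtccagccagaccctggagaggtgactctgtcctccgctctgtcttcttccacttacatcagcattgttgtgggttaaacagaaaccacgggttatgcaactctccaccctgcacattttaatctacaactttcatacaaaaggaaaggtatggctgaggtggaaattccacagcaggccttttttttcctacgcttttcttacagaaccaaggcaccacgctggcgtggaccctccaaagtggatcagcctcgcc
The Fastkd3 window held 1 GC box and 1 CCAAT box, the Zfp367 window shown 2 and 3, and the Ctsl window 0 and 0. Another Zfp367 window, not shown, held 4 GC boxes and 0 CCAAT boxes. A GC box was found in 35.7% and a CCAAT box in 37.4% of all 32851 promoter windows of the table. With all windows of a gene counted, 4 of the 7 genes had a GC box and 4 had a CCAAT box. Zfp367 had 2 windows and Mef2c 3, so these counts by gene are not comparable with the shares by window.

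Arrays were compared on log2 signals after background correction and quantile normalization. The 8 arrays had 11585 to 11688 detected probes in livers and 13019 to 13409 in MEFs. Log2 intensities of the DKO MEF array correlated with those of the other MEF arrays at 0.9784 to 0.9789, below the highest value between 2 MEF arrays, 0.9894. Of 6 hepatocyte markers 5 were detected on every liver array and 0 or 1 on MEF arrays, with median log2 signals of 13.57 to 13.70 in livers and 4.13 to 4.19 in MEFs. Fibroblast markers were at 4.73 to 4.95 in livers and 8.72 to 11.47 in MEFs, lowest on the DKO MEF array. Macrophage and leukocyte markers were at 9.46 in DKO liver, 8.9 to 9.03 in the other livers and 4.22 to 4.39 in MEFs. Endothelial markers were at 5.89 to 6.24 in livers, and cholangiocyte and epithelial markers at 4.69 to 5.25, highest in DKO liver. The part of cell composition in the differences of the 8 genes was not tested. The single Nsun2 probe, ILMN_2624176, lay near background. It was not detected on any Nsun2-lacking array, with log2 signals of 4.33 and 4.22 in Nsun2-/- and DKO MEFs and 4.10 and 4.19 in Nsun2-/- and DKO livers. On the Nsun2-carrying arrays it was 5.14 in Dnmt2-/- and 5.36 in wt MEFs and 5.35 in wt liver, whereas the Dnmt2-/- liver array also gave no detectable signal (4.41). The values of the 8 genes on that array are therefore given one by one.

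For 10 of the 14 tested probes, both Nsun2-lacking arrays lay on the same side of both Nsun2-carrying arrays in MEFs and again in livers. Of these probes 6, in 5 genes, were lower without Nsun2, and 4, in 3 genes, were higher. Over all 15290 tested probes, 3.03% were lower in this way, 2.93% were higher and 5.96% were either. The genes were listed for this contrast, so nothing is read from that difference in shares. In MEFs 3 of the probes were at least 2-fold lower and 1 at least 2-fold higher, where 0.628% and 0.589% of all tested probes were. In livers the counts were again 3 and 1, where 0.419% and 0.543% of all tested probes were. Zfp738 is among the 3 lower in livers and among the 6 lower in both sample types. Its probe passed the filter through Nsun2-carrying arrays alone, so nothing is read from its place in these counts. In MEFs alone 6 probes lay apart lower and 5 higher, where 15.6% and 14.8% of all tested probes did, and in livers alone 7 and 5, where 18.7% did in each direction. The plot of all probes by array shows these values.

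**Figure D1:**
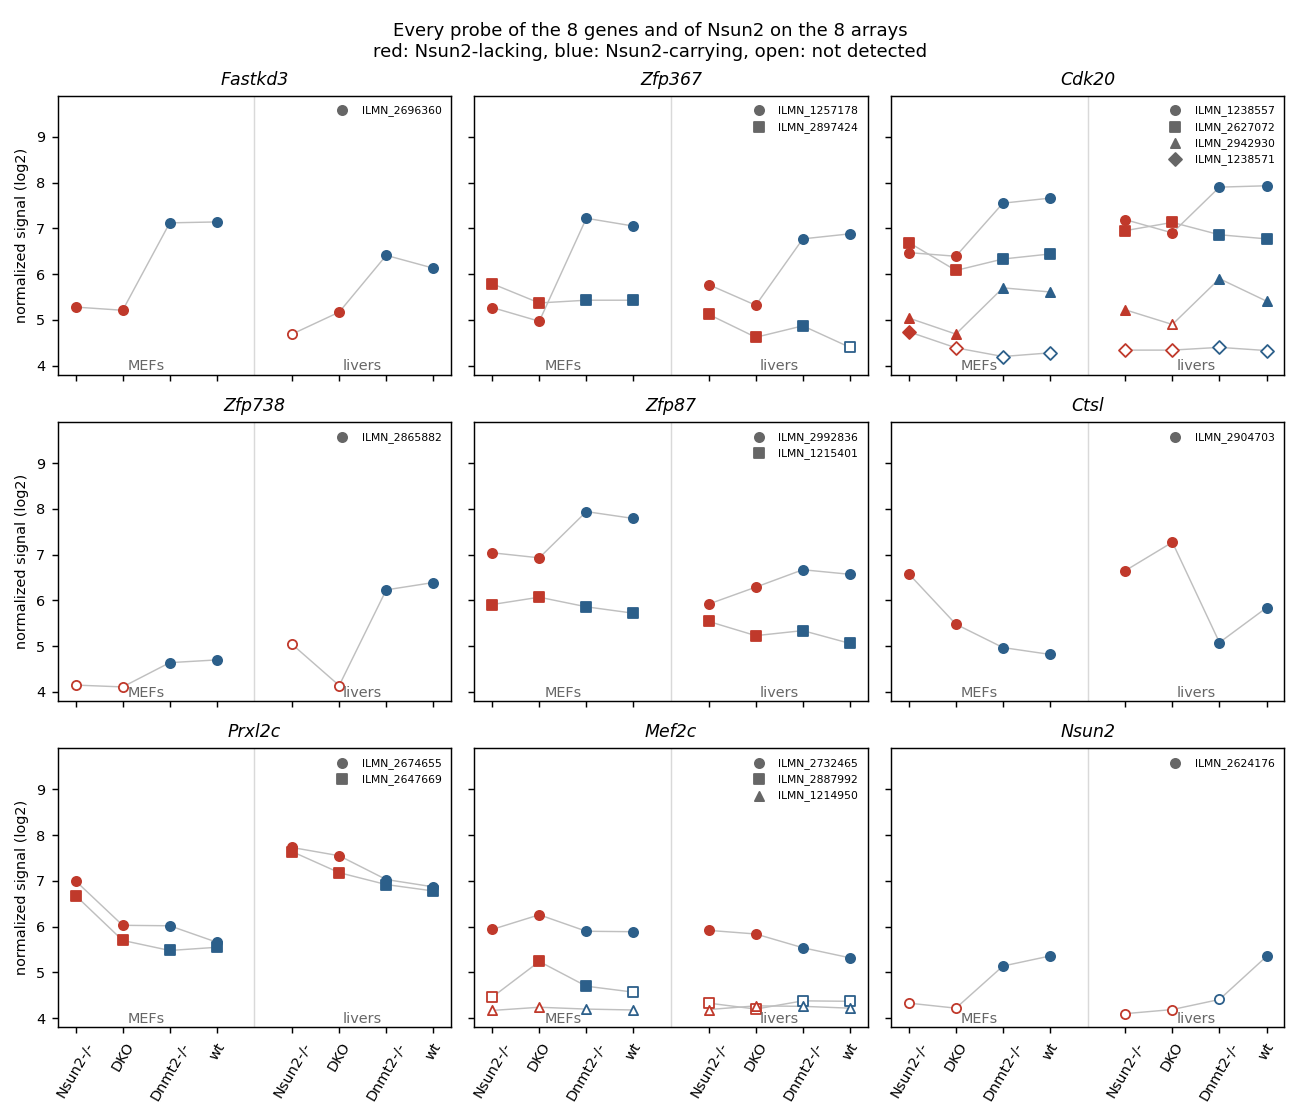
Normalized log2 signal (vertical axes) of every probe of the 8 genes and of Nsun2 on each of the 8 arrays (horizontal axes), MEFs left and livers right, with Nsun2-lacking arrays in red and Nsun2-carrying arrays in blue. Open symbols mark a probe not detected on that array, and grey lines only join values of the same probe. Fastkd3, with 5.28 and 5.21 in Nsun2-lacking MEFs against 7.12 and 7.14 in Nsun2-carrying MEFs, shows the step that the brighter Zfp367 and Cdk20 probes share, and the second Zfp367 probe shows none.

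Fastkd3, the nearest of the 8 genes to Nsun2, encodes a protein of the FAST kinase domain family, whose members act on mitochondrial RNA. Its single probe, ILMN_2696360, had log2 signals of 5.28 and 5.21 in Nsun2-/- and DKO MEFs, against 7.12 and 7.14 in Dnmt2-/- and wt MEFs, a level 3.69-fold lower without Nsun2. In livers it was 4.69 in Nsun2-/-, where it was not detected, and 5.17 in DKO, against 6.41 and 6.13 in Dnmt2-/- and wt, 2.53-fold lower. The groups did not overlap in either sample type, and the liver array labelled Dnmt2-/- was the highest of the 4 livers. Before background correction the intensities were 129 and 125 in Nsun2-/- and DKO MEFs, against 301 and 294 in Dnmt2-/- and wt MEFs. The same step thus stood in the deposited intensities. The log2 difference over both sample types was −1.61, and −0.72 with no background correction.

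Zfp367 encodes a zinc finger transcription factor. Its brighter probe, ILMN_1257178, was at 5.27 and 4.97 in Nsun2-/- and DKO MEFs, against 7.22 and 7.05 in Dnmt2-/- and wt MEFs, 4.05-fold lower. Its livers were at 5.77 and 5.32 in Nsun2-/- and DKO, against 6.77 and 6.88 in Dnmt2-/- and wt, 2.42-fold lower. The groups lay apart in both sample types, with a log2 difference over both of −1.65, and of −0.79 with no background correction. The second probe, ILMN_2897424, gave no such step. It was at 5.79 and 5.37 in Nsun2-/- and DKO MEFs, against 5.43 and 5.43 in Dnmt2-/- and wt MEFs. In livers it was at 5.12 and 4.62 in Nsun2-/- and DKO, against 4.87 in Dnmt2-/- and 4.40 in wt, where it was not detected. The groups overlapped, and the log2 difference over both sample types was 0.19.

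Cdk20 encodes a cyclin-dependent kinase related to cell cycle kinases, and 3 of its 4 probes were tested. The brightest, ILMN_1238557, was at 6.47 and 6.39 in Nsun2-/- and DKO MEFs, against 7.55 and 7.66 in Dnmt2-/- and wt MEFs, 2.26-fold lower. The livers were at 7.19 and 6.90 in Nsun2-/- and DKO, against 7.90 and 7.93 in Dnmt2-/- and wt, 1.83-fold lower, and the groups lay apart in both sample types. The log2 difference over both sample types was −1.02, and −0.66 with no background correction. ILMN_2942930 was also lower on all Nsun2-lacking arrays, at 5.04 and 4.69 in Nsun2-/- and DKO MEFs against 5.70 and 5.61 in Dnmt2-/- and wt MEFs, 1.74-fold. Its livers were at 5.22 in Nsun2-/- and 4.90 in DKO, where it was not detected, against 5.90 and 5.41 in Dnmt2-/- and wt, 1.51-fold lower. Its log2 difference of −0.70 over both sample types was −0.24 with no background correction. ILMN_2627072 overlapped in MEFs, with 6.69 and 6.08 in Nsun2-/- and DKO MEFs, against 6.33 and 6.44 in Dnmt2-/- and wt MEFs, and 6.95 and 7.13 in Nsun2-/- and DKO livers, against 6.86 and 6.77 in Dnmt2-/- and wt livers. The livers lay apart, higher without Nsun2 by 0.23, and without the DKO MEF array the remaining arrays of this probe lay apart in both sample types. ILMN_1238571, which was not tested, was detected at 4.74 in Nsun2-/- MEFs.

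Zfp738 and Zfp87 are zinc finger genes that lie near each other, separated among the measured genes by Zfp748. The Zfp738 probe, ILMN_2865882, was detected on all 4 Nsun2-carrying arrays and on none of the 4 Nsun2-lacking arrays. Its log2 signals were 5.04 and 4.14 in Nsun2-/- and DKO livers, against 6.23 and 6.39 in Dnmt2-/- and wt livers. Counting an undetected array at no less than its lowest detected signal, this was at least 2.93-fold lower. In MEFs the probe was dim in all genotypes, at 4.15 and 4.11 in Nsun2-/- and DKO, against 4.64 and 4.70 in Dnmt2-/- and wt, at least 1.21-fold lower. Taken at its measured signals, which lay below detection without Nsun2, its log2 difference over both sample types was −1.13, or −0.45 with no background correction, and neither value is a measured fold.

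The Zfp87 probe ILMN_2992836 was at 7.04 and 6.93 in Nsun2-/- and DKO MEFs, against 7.94 and 7.79 in Dnmt2-/- and wt MEFs, 1.83-fold lower. In livers it was at 5.92 and 6.29 in Nsun2-/- and DKO, against 6.67 and 6.57 in Dnmt2-/- and wt, 1.42-fold lower. The groups lay apart, but the DKO liver was nearer to the wt liver than to the Nsun2-/- liver. Its log2 difference of −0.69 over both sample types was −0.42 with no background correction. The other Zfp87 probe, ILMN_1215401, was at 5.91 and 6.07 in Nsun2-/- and DKO MEFs, against 5.86 and 5.72 in Dnmt2-/- and wt MEFs. Its livers were at 5.54 and 5.23 in Nsun2-/- and DKO, against 5.34 and 5.06 in Dnmt2-/- and wt, and overlapped, whereas the MEFs lay apart, higher without Nsun2 by 0.20. Without the Dnmt2-/- liver, or without the DKO liver, this probe lay apart, higher without Nsun2.

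Ctsl, Prxl2c and Cdk20 are consecutive measured genes, and the first pair were higher without Nsun2 while Cdk20 was lower by 2 of its probes. Ctsl encodes cathepsin L, a cysteine protease of lysosomes. Its probe, ILMN_2904703, was at 6.58 and 5.48 in Nsun2-/- and DKO MEFs, against 4.97 and 4.82 in Dnmt2-/- and wt MEFs, 2.19-fold higher. The Nsun2-/- and DKO livers were at 6.65 and 7.27, against 5.08 and 5.84 in Dnmt2-/- and wt, 2.83-fold higher. The groups lay apart in both sample types, but the Nsun2-/- and DKO MEF arrays themselves differed by more than the DKO array did from the Dnmt2-/- array. Intensities were 215 and 137 in Nsun2-/- and DKO MEFs, against 122 and 115 in Dnmt2-/- and wt MEFs. In livers they were 148 and 181, against 109 and 118. The median intensities of the Dnmt2-/- and wt arrays were 111.1 and 110.1 in MEFs and 102.9 and 99.78 in livers. The Nsun2-carrying signals were thus low, which limits how well these folds are known. The log2 difference over both sample types was 1.32, and 0.58 with no background correction.

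Prxl2c encodes a peroxiredoxin-like protein, and its pair of probes gave nearly the same differences. ILMN_2674655 was at 7.00 and 6.03 in Nsun2-/- and DKO MEFs, against 6.02 and 5.66 in Dnmt2-/- and wt MEFs, 1.60-fold higher. The livers showed 7.73 and 7.55 in Nsun2-/- and DKO, against 7.03 and 6.87 in Dnmt2-/- and wt, 1.61-fold higher. The DKO MEF array barely exceeded the Dnmt2-/- MEF array, and this probe no longer lay apart when arrays were scaled to the same median or when the authors' deposited values were used. ILMN_2647669 was at 6.68 and 5.70 in Nsun2-/- and DKO MEFs, against 5.48 and 5.55 in Dnmt2-/- and wt MEFs, 1.60-fold higher. Its livers were at 7.64 and 7.18 in Nsun2-/- and DKO, against 6.92 and 6.78 in Dnmt2-/- and wt, 1.48-fold higher. For both probes the Nsun2-/- MEF array stood well above the other 3 MEF arrays. Over both sample types the log2 differences were 0.68 and 0.62, and 0.40 and 0.34 with no background correction.

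Mef2c, the farthest of the 8 genes from Nsun2, encodes a transcription factor of the MEF2 family. Its brightest probe, ILMN_2732465, had the smallest of the 10 differences. It was at 5.94 and 6.26 in Nsun2-/- and DKO MEFs, against 5.90 and 5.89 in Dnmt2-/- and wt MEFs, 1.15-fold higher. In livers it was at 5.92 and 5.84 in Nsun2-/- and DKO, against 5.54 and 5.32 in Dnmt2-/- and wt, 1.37-fold higher. Its log2 difference of 0.33 over both sample types was 0.14 with no background correction, and the arrays overlapped when they were scaled to the same median. ILMN_2887992 was detected on the DKO (5.24) and Dnmt2-/- (4.70) MEF arrays only, and the MEF groups overlapped. Without the DKO MEF array its remaining arrays lay apart the other way, lower without Nsun2, with a log2 difference of −0.13. In Nsun2-/- and wt MEFs it was at 4.46 and 4.57, and in livers at 4.33 and 4.20 in Nsun2-/- and DKO, against 4.38 and 4.37 in Dnmt2-/- and wt.

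**Figure D2:**
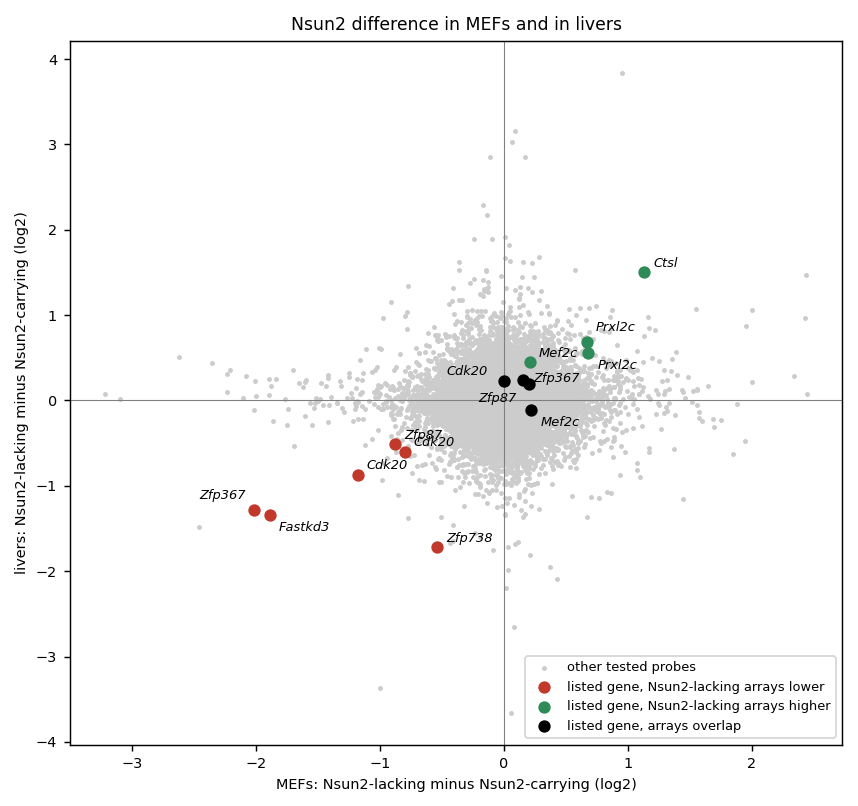
Nsun2 difference (mean of the Nsun2-lacking arrays minus mean of the Nsun2-carrying arrays, log2) in MEFs on the horizontal axis and in livers on the vertical axis, 1 point for each tested probe. The 6 red probes of Fastkd3, Zfp367, Cdk20, Zfp738 and Zfp87 lie lower left, the 4 green probes of Ctsl, Prxl2c and Mef2c upper right, and the 4 black probes, whose arrays overlap, near the centre of the grey cloud of other probes.

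Probes of the same gene disagreed on the Nsun2 difference in 3 of the 5 genes that had at least 2 tested probes. The range between probes was 1.84 on the log2 scale for Zfp367, 1.14 for Cdk20 and 0.885 for Zfp87. It was 0.272 for Mef2c and 0.061 for Prxl2c. The genes were listed because a probe differed with Nsun2 genotype, so nothing is read from the width of these ranges. For the Dnmt2 difference, which did not enter the choice of the genes, the ranges were 0.057 for Zfp367, 0.104 for Cdk20 and 0.057 for Zfp87. They were 0.085 for Mef2c and 0.187 for Prxl2c, with a median of 0.153 over 2785 genes. Whether the ranges differ between the Nsun2 and Dnmt2 differences was not tested. Which stretches of the transcripts these probes read was not analysed here.

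Most genes between and beside the 8 genes had differences near 0. Tent4a, the measured gene just before Nsun2, which encodes a poly(A) polymerase, was at 8.51 and 8.78 in Nsun2-/- and DKO MEFs, against 8.58 and 8.69 in Dnmt2-/- and wt MEFs. Its log2 Nsun2 difference over both sample types was −0.01. Mtrr, on the other side of Fastkd3, had a difference of 0.13, Zfp748 −0.12, Zfp58 −0.05, Habp4 0.07 by its brighter probe and −0.35 by the other, Cdc14b −0.08, Mfsd14b −0.01, Cetn3 −0.05 and Rasa1 0.01, and the arrays of each overlapped. Med10, just after Nsun2, which encodes a Mediator subunit, was lower on the Nsun2-lacking arrays in both sample types, with a difference of −0.34. In MEFs the DKO array was the low one for Med10, at 7.12, with 7.83 in Nsun2-/-, against 8.03 in Dnmt2-/- and 7.89 in wt. Ercc6l2, beside Zfp367, had a difference of −0.38 by its brighter probe and 0.30 by the other, and the arrays of both overlapped.

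Of the 30 measured genes nearest to Nsun2 on each side, 52 were not among the 8. The arrays of 3 of these 52, or 5.77%, lay apart in both sample types, 2 lower and 1 higher, against 5.96% of all 10498 genes with a tested probe. With the 8 genes counted, the arrays of 11 of 60, or 18.3%, lay apart. The 8 were listed for this contrast, so taking them out lowers the share by choice. Nothing is read from either share. Of the 52, 0 were 2-fold different over both sample types, and their median difference was −0.008. The largest differences among them were those of Nr2f1 (0.76), Irx2 (−0.54), Irx1 (−0.48), Cast (0.39) and Ercc6l2, and the arrays of all 5 overlapped. Nr2f1, Irx2 and Irx1, all transcription factors of development, were set apart by the DKO MEF array, where Nr2f1 was at 10.11 and Irx2 at 6.48, with 7.96 and 9.70 in Nsun2-/- MEFs. Over the other 355 measured genes of chromosome 13, 7.61% lay apart, which placed the chromosome 4th of 20 in a range of 3.35% to 9.01%.

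**Figure D3:**
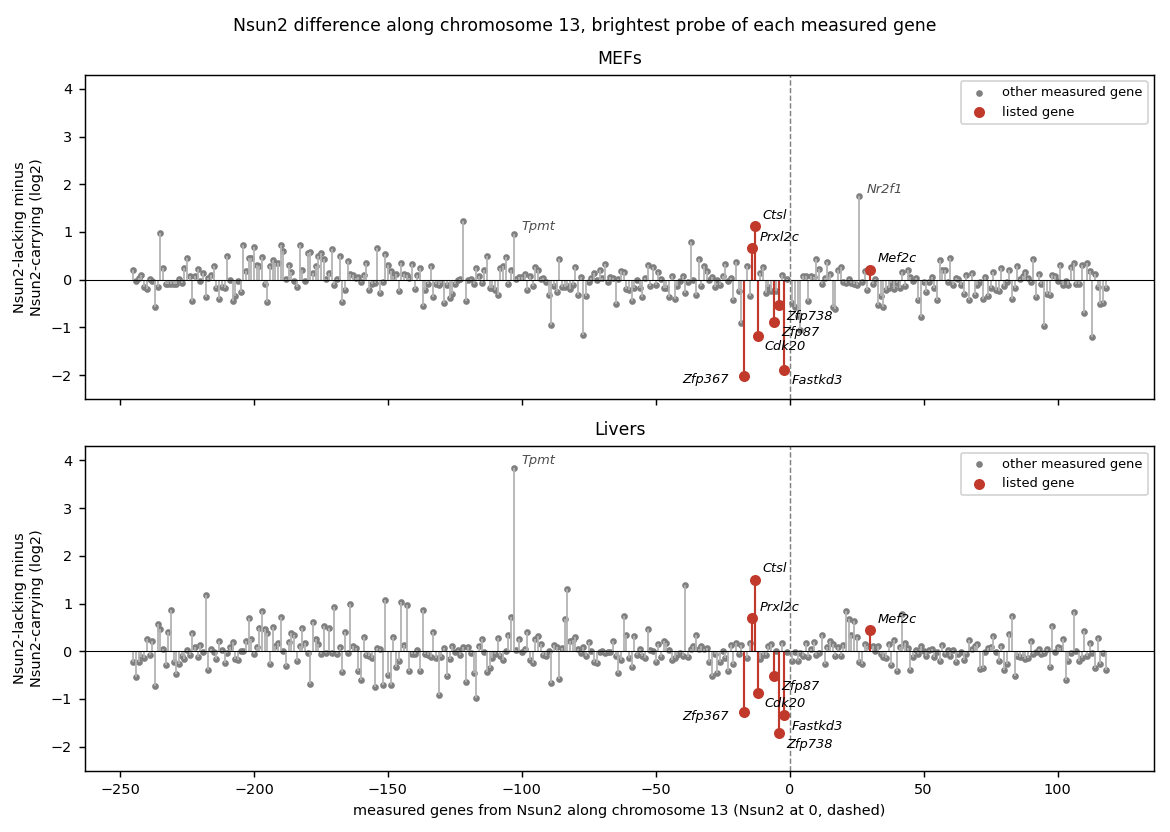
Nsun2 difference (Nsun2-lacking minus Nsun2-carrying arrays, log2) of the brightest tested probe of each measured gene along chromosome 13, in MEFs above and livers below. The horizontal axis counts measured genes from Nsun2 (dashed line), so it is not a distance in bases. The 8 listed genes (red) stand among other genes, most of them near 0, and Tpmt, 103 measured genes before Nsun2, has the largest difference in livers.

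Tpmt, the thiopurine methyltransferase gene, lies on the same chromosome but far from Nsun2. Among the chromosome 13 genes beyond the 60 nearest and outside the 8, it had the largest Nsun2 difference, 2.40 over both sample types. It was at 9.92 and 9.85 in Nsun2-/- and DKO livers, against 6.28 and 5.81 in Dnmt2-/- and wt livers, and at 6.18 and 6.15 in Nsun2-/- and DKO MEFs, against 4.59 and 5.83 in Dnmt2-/- and wt MEFs. The next among these genes were Ogn (−0.81) and Cdkal1 (0.80), whose arrays also lay apart. The other probes of Ogn were at −0.02 and −0.40, and their arrays overlapped. By limma with Benjamini-Hochberg adjustment over 15290 probes, 0 probes passed 0.05 for Nsun2 loss (0%). At an unadjusted p under 0.05 there were 639 (4.18%). These counts cover all tested probes, those of the listed genes among them, and are read as background only.

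Gene families of the members were set beside them. Among the 13 tested zinc finger genes of chromosome 13 other than Zfp367, Zfp738 and Zfp87, the arrays of 1, Zscan26 (−0.25), lay apart lower without Nsun2 and those of 0 lay apart higher, where 3.03% and 2.93% of all genes with a tested probe did. Their median Nsun2 difference was −0.11, against −0.003 over all genes with a tested probe. Of the 5 FASTK family genes other than Fastkd3, Fastkd5 lay apart higher, and the 5 had differences of −0.20 to 0.20. The arrays of 0 of the 11 other tested cathepsin genes lay apart, and their differences ran from −0.37 to 0.19. Prxl2b (0.52) and Prxl2a (−0.24) overlapped, as did the other MEF2 genes and Mnat1 (−0.28), a subunit of the CDK-activating kinase. None of these genes passed an adjusted p of 0.05 for Nsun2 loss or Dnmt2 loss by limma.

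The pattern of the Fastkd3 probe over the 8 arrays, after the mean of each sample type was subtracted, was most like that of the Zfp87 probe ILMN_2992836 among all other tested probes, with Pearson's r of 0.984. The brightest Cdk20 probe was at 0.955 and the brighter Zfp367 probe at 0.951. These 3 genes were listed for the same Nsun2 contrast as Fastkd3, so their likeness follows from the choice of genes. Among genes that were not listed, the closest were Unc5b on chromosome 10 (0.969), Lamtor4 on chromosome 5 (0.966), Mcmbp on chromosome 7 (0.962), Abhd18 on chromosome 3 (0.953) and Asgr1 on chromosome 11 (0.949). Unc5b, a netrin receptor gene, had the largest Nsun2 difference of these 5, −0.74 on the log2 scale. The correlations describe 8 arrays that share their normalization and carry no p-value.

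Nsun2 genotype coincided with sex-linked expression in MEFs. Y-linked Eif2s3y was not detected in Nsun2-/- (4.09) and DKO (4.10) MEFs, against 6.78 in Dnmt2-/- and 7.85 in wt MEFs. Xist, the RNA of the silenced X chromosome, was read by probes ILMN_3022688 and ILMN_3123341. The first was at 5.90 and 6.07 in Nsun2-/- and DKO MEFs, against 4.58 in Dnmt2-/- and 4.47 in wt MEFs, where it was not detected. The other was at 5.88 and 6.19 in Nsun2-/- and DKO MEFs. It was not detected in Dnmt2-/- MEFs (4.47) but was in wt MEFs (4.62). Kdm5d, also Y-linked, was not detected in Nsun2-/- and DKO MEFs and in Nsun2-/- liver, and Uty was detected on all 8 arrays. In livers Eif2s3y was at 8.76 and 8.93 in Nsun2-/- and DKO, against 8.76 and 8.79 in Dnmt2-/- and wt. The Xist probe ILMN_3022688 was at 5.21 and 4.85 in Nsun2-/- and DKO livers, against 5.48 in Dnmt2-/- and 4.51 in wt, where it was not detected. ILMN_3123341 was detected in Nsun2-/- liver (5.16) but not in DKO (4.39), Dnmt2-/- (4.78) or wt (4.22) livers. The part of sex-linked expression in the differences of the 8 genes was not tested.

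The Dnmt2 difference crosses the Nsun2 difference in this layout and was not used to list the genes, so it was tested. By limma, 0 of the 14 probes passed an adjusted p of 0.05 for Dnmt2 loss over both sample types, and 0 passed an unadjusted p of 0.05. Over all 15290 tested probes, 0 (0%) passed the adjusted and 617 (4.04%) the unadjusted p of 0.05 by limma. The Dnmt2-lacking arrays of 0 of the 14 probes lay apart lower in both sample types, and those of 0 lay apart higher. Of all tested probes 2.56% and 2.26% did. For the 10 probes that lay apart by Nsun2 genotype, the arrays could not lie apart by Dnmt2 genotype as well. Nothing is read from these 2 counts. Estimates for the 14 probes ran from −0.34 to 0.20 on the log2 scale, with standard errors of 0.13 to 0.28. Their adjusted p-values by limma ran from 0.977 to 0.997. The highest estimate, 0.20, was that of the Mef2c probe ILMN_2887992. It entered the tests through Dnmt2-lacking MEF arrays alone, so nothing is read from its value. For Fastkd3 the estimate was 0.17 (SE 0.17, adjusted p 0.977 by limma). The interaction of Dnmt2 and Nsun2 loss also passed for 0 of the 14 probes by limma, and for 0 of all probes (0%), with a lowest adjusted p of 0.954 among the 14. At an unadjusted p under 0.05 the interaction passed for 3 of the 14, and for 628 of all tested probes (4.11%). These were both Prxl2c probes, with estimates of −0.84 and −0.75, and the second Zfp367 probe, with −0.70.

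Levels in livers were tested against levels in MEFs, a contrast that also crosses the Nsun2 difference. By limma, 6 of the 14 probes were higher in livers and 4 lower at an adjusted p under 0.05, and 4 did not pass. Of all tested probes 4302 (28.1%) were higher and 5810 (38%) lower, a split that changed to 3064 higher and 7739 lower when arrays were scaled to the same median. That scaling also moved the median liver-minus-MEF difference of all probes, −0.139 with quantile normalization, to −0.467, and values relative to that median are given where the direction turned. Fewer cells of a type and less RNA per cell cannot be told apart in such samples.

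Prxl2c was higher in livers, and so was Zfp738 on the arrays where it was detected. The Prxl2c probe ILMN_2647669 rose by 1.28 (SE 0.19, adjusted p 0.000388 by limma) and ILMN_2674655 by 1.12 (SE 0.21, adjusted p 0.00162). With median scaling the second was at 0.33 and lost its call (adjusted p 0.215). Zfp738 rose by 1.05 (SE 0.27, adjusted p 0.00764 by limma), but its probe was detected on Nsun2-carrying arrays alone. There it was at 6.23 and 6.39 in Dnmt2-/- and wt livers, against 4.64 and 4.70 in MEFs. The fit also averaged over undetected arrays, at 5.04 and 4.14 in Nsun2-/- and DKO livers and 4.15 and 4.11 in MEFs. Ctsl rose by 0.75 (SE 0.28, adjusted p 0.0396 by limma), but this call was lost with no background correction, with the larger offset, with median scaling, with the authors' deposited values, with no filter, and without the wt or DKO array of either sample type.

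Zfp87 and Fastkd3 were lower in livers. The Zfp87 probe ILMN_2992836 fell by 1.06 (SE 0.15, adjusted p 0.000244 by limma) and ILMN_1215401 by 0.60 (SE 0.14, adjusted p 0.00555), so that its probes agreed on this contrast. Fastkd3 fell by 0.59 (SE 0.17, adjusted p 0.0146 by limma), a call lost without the wt MEF array (adjusted p 0.0538) or the wt liver array (0.052). The Zfp367 probes gave unlike values here as well: ILMN_2897424 fell by 0.75 (SE 0.18, adjusted p 0.00584 by limma), and ILMN_1257178 was at 0.06 (SE 0.19, adjusted p 0.814).

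The Cdk20 probes ILMN_2627072 and ILMN_1238557 were higher in livers by 0.54 (SE 0.16, adjusted p 0.0183 by limma) and 0.46 (SE 0.13, adjusted p 0.0148), but turned to −0.28 and −0.36 with median scaling. Relative to the median of all probes they were at 0.68 and 0.60 with quantile normalization and at 0.19 and 0.11 with median scaling. ILMN_2942930 was at 0.10 (SE 0.17, adjusted p 0.624 by limma). The call of ILMN_1238557 was lost without the Nsun2-/- MEF or liver array (adjusted p 0.0521 and 0.0578 by limma), and that of ILMN_2627072 with the authors' deposited values (0.0578) and without the Dnmt2-/- or DKO liver array (0.0544 and 0.0623). The Mef2c probes ILMN_2732465 and ILMN_2887992 were at −0.34 (SE 0.14, adjusted p 0.0547 by limma) and −0.43 (SE 0.18, adjusted p 0.0649), and neither passed. ILMN_2887992 entered the tests through MEF arrays alone, so nothing is read from its value. ILMN_2732465 passed without the Nsun2-/- MEF array (adjusted p 0.0427), without the Nsun2-/- liver array (0.0449), with median scaling, with the authors' deposited values and with either other detection filter.

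**Figure D4:**
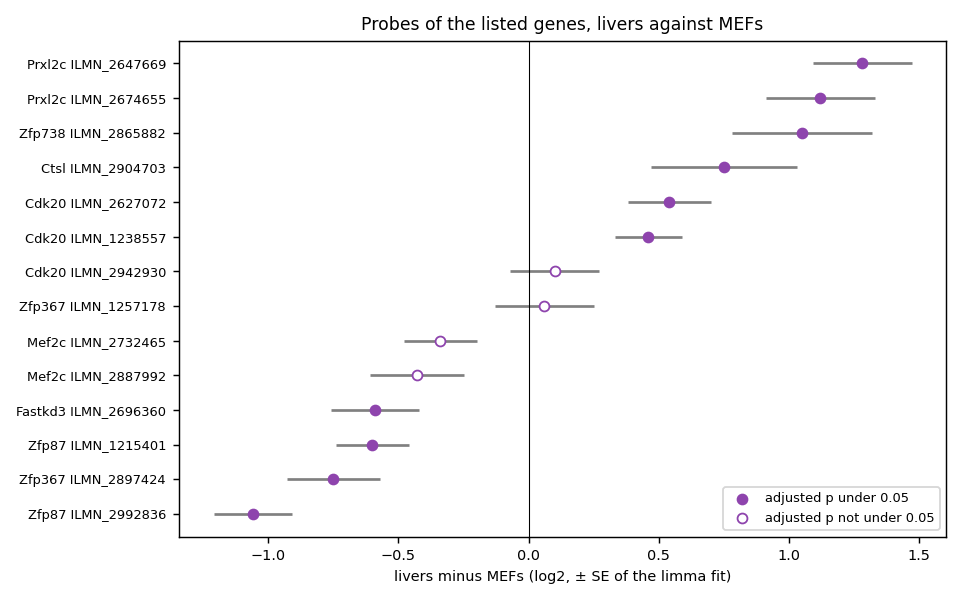
Liver-minus-MEF difference (log2, horizontal axis) of the 14 tested probes of the listed genes (vertical axis), with bars of ± 1 standard error of the limma fit over 8 arrays. Filled points passed an adjusted p of 0.05: 6 higher in livers, from 0.46 to 1.28, and 4 lower, from −0.59 to −1.06.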

How the data were processed

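RNA from MEFs and livers of 4 genotypes was hybridized to 8 bead arrays, per the labels' protocols. The deposited intensity table, named as not normalized per the file headers, holds a linear intensity and a detection p-value for each probe and array, with no background subtracted as far as its values show. The sources used here do not say how the authors computed the deposited detection p-values or how they normalized a second table of processed intensities.

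Intensities were corrected with limma's normexp model from the detection p-values (offset 16), log2-transformed and quantile-normalized. Probes stayed separate. Of 25608 probes, 15290 were detected (p under 0.01) on at least 2 arrays and were tested with limma 3.58.1 (R 4.3.3) and Benjamini-Hochberg adjustment. The additive fit used sample type, Dnmt2 and Nsun2 (4 residual degrees of freedom), and the interaction fit had 3. The spread is the departure of arrays from this layout, not that between animals or cultures, and the number of arrays limits the precision. A fold with an undetected group is given as "at least", against the higher of the probe's own signal and the lowest detected signal of each array.

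Simulated data held 15290 probes, some of them changed by 1 or by 2 on the log2 scale. The additive fit recovered 85% and 100% of these for Nsun2 loss, 90% and 99% for Dnmt2 loss and 89% and 98% for liver. The interaction fit recovered 2% and 77%. All other genotype effects were set to 0, and the noise was independent and normal. Real arrays need not meet these settings, so the shares do not say which changes the real data could show. Platform annotation named 23898 probes with 1 symbol, 0 with several and 1710 with none. RefSeq (GRCm38.p6) gave gene order and promoters. For each gene along the chromosome the brightest tested probe was used. Named genes are all members, their next measured neighbours, the 5 largest near differences, the 3 largest elsewhere on the chromosome, the 5 most Fastkd3-like probes and up to 3 of each family list. Members and lists were chosen with earlier results of these data known. Alternatives were no background correction, an offset of 50, median scaling, the authors' deposited intensities, other detection filters and leaving out each array.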

Additional observations from a re-analysis of the deposited data

How the results depend on the processing

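No Nsun2 difference of the 10 probes that lay apart changed sign under any alternative. The count of probes apart, 10 as reported, was 10 with no background correction, with an offset of 50 and with no filter (of 16 probes). It was 9 with the authors' deposited values, 8 with median scaling and 7 of 9 among probes detected on all 8 arrays, where Fastkd3, Zfp738 and the Cdk20 probe ILMN_2942930 were not tested. Leaving out 1 array gave 10 to 12. It could not give fewer than 10, because groups that lie apart stay apart when an array is removed. The genes were listed for this contrast, so nothing is read from the leave-out counts. Differences shrank with no background correction, as given beside each gene, and these genes' low intensities limit how well their folds are known. Counts for Nsun2 loss, Dnmt2 loss and their interaction were 0 under every alternative run, by limma, with 326 to 1101, 348 to 1039 and 384 to 1360 probes at an unadjusted p under 0.05. Liver-minus-MEF calls, 10112 as reported, were 6220 among probes detected on all 8 arrays, where fewer probes were tested, and 9323 to 9743 with 1 array left out. The liver-minus-MEF difference of the Zfp367 probe ILMN_1257178 turned to −0.02 with no background correction, −0.00 with an offset of 50, −0.58 with median scaling and −0.06 with the authors' deposited values, and ran from −0.11 to 0.23 with 1 array left out, also passing through −0.07. That of the Cdk20 probes turned to −0.36 (ILMN_1238557), −0.28 (ILMN_2627072) and −0.29 (ILMN_2942930) with median scaling, and ILMN_2942930 ran from −0.01 to 0.25 with 1 array left out. The cause was not tested. No paired analysis was possible because each group has 1 array.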
